A study of Mus musculus with 3 samples.

Results

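The genes described here are 10 genes of efferocytosis, the engulfment of dying cells, taken by symbol from the deposited tables of 55536 genes. They are the TAM receptors Mertk, Axl and Tyro3, their ligands Gas6 and Pros1, the other receptors Timd4 and Lrp1, the bridging protein Mfge8, and the engulfment proteins Elmo1 and Dock2. All 10 were found. Their RNA was measured by polyA plus RNA-seq in primary macrophages grown from bone marrow of C57BL/6J mice. They had received the stimulus at 100 ng/mL for 480 minutes. What it was is given in 2 ways: Lipid A, a part of bacterial endotoxin, in the descriptions, and lipoprotein A, called a protein, in the treatment fields. The 3 libraries form 1 group and are labelled as biological replicates 1, 2 and 3, under a single donor label, with sex and age not collected. No unstimulated macrophages and no macrophages fed with dying cells are among them, so every value below is a level after stimulation and not a change. Nothing in the labels says whether the replicates came from separate animals, and the p-values measure the spread between these libraries only.

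TAM receptors are receptor tyrosine kinases that recognise phosphatidylserine on dying cells through soluble bridges. Gas6 and Pros1 bind phosphatidylserine at one end, after vitamin K-dependent carboxylation, and a TAM receptor at the other. Mertk is the TAM receptor best known for the engulfment of dying cells by macrophages at rest and under glucocorticoids, and Axl is the one best known for induction by inflammatory stimuli. Timd4 binds phosphatidylserine directly, Mfge8 bridges it to integrins, and Lrp1 is a large scavenger receptor that also binds calreticulin. Elmo proteins join Dock proteins to activate the small GTPase Rac, which drives the actin changes of engulfment.

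The libraries held 26589042, 34344922 and 48356527 expected counts on genes in replicates 1, 2 and 3. A ribosomal RNA gene took 2.78%, 1.83% and 6.66% of them. With it and the mitochondrial genes left out and TPM rescaled, mean levels of the 10 genes were 1.08 to 1.10 times as high. All 10 macrophage markers examined (such as Adgre1, Csf1r and Cd68) reached at least 1 TPM in every library. TPM is a transcript abundance per length, scaled to the same total in each library, and a gene was called detected at 1 TPM or more in all 3 libraries. Replicate 2 stood apart in markers of other cells. None of 10 neutrophil markers was higher in another library than in replicate 2, though Cxcr2 was equal in replicates 2 and 3, at 0.03 TPM. Their summed level was 22.9, 421 and 21.4 TPM, most of it S100a8 and S100a9. Ly6g and Retnlg rested on 2 and 1 counts in replicate 2. Each of 6 platelet and megakaryocyte markers was highest in replicate 2, at 229.8, 872 and 224 TPM in sum, nearly all of it Pf4. No neutrophil or platelet marker was without counts in all libraries. The T cell genes Cd3d and Cd3g were at 0 in all 3. The 6 T cell markers together summed to 0.06, 1.13 and 0.29 TPM, a low level that was also highest in replicate 2. The part of these differences in the results below was not tested, and in bulk RNA fewer cells of a type and less RNA per cell cannot be told apart. Values without replicate 2 are given where a call among the 10 genes rests on it.

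Several of the genes have more than 1 transcript, and the level of Lrp1 differed with how reads were divided among them. Shown here are stretches that set such transcripts apart, because the isoform results turn on them. Each sequence is the spliced transcript, read 5′ to 3′ in mm10, and the coordinates are those of the capitals. In the first pair the capitals are a coding exon that the second transcript of the gene lacks, with the neighbouring exon bases in lower case.

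Axl exon 10, in Axl-201 and not in Axl-202 (27 bases, chr7:25773099-25773125, minus strand): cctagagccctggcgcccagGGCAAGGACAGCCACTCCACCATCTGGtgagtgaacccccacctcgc
Mfge8 exon 4, in Mfge8-201 and not in Mfge8-202 (111 bases, chr7:79143278-79143388, minus strand): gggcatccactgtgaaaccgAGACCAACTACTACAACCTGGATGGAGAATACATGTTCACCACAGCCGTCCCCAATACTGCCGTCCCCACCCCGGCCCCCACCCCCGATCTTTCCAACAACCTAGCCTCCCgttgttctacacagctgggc

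In the other 3 the capitals are the first bases of a transcript that is not annotated as protein-coding. They lie in an intron of the gene's main transcript, and the lower-case bases that follow are an exon shared with it. Each of these transcripts covers only some of the main transcript's exons: 87 to 89 of 89 for Lrp1-208, 9 to 19 of 19 for Mertk-202 and 3 to 5 of 20 for Axl-208. Each run of capitals ends in AG, the letters with which introns usually end.

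Lrp1-208 (35 bases, chr10:127539563-127539597, minus strand): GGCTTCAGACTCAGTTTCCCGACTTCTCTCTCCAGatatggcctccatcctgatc
Mertk-202 (34 bases, chr2:128771313-128771346, plus strand): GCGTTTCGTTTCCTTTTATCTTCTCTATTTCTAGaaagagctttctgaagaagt
Axl-208 (79 bases, chr7:25786988-25787066, minus strand): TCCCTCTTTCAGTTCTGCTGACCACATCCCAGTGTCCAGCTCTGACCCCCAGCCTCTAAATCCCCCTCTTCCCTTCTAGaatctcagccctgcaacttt

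Axl and Mertk carried nearly all of the TAM receptor RNA, and Tyro3 was close to the counting limit. Axl (ENSMUSG00000002602.16, chr7:25757273-25788705, minus strand) stood at 221.53, 188.35 and 236.62 TPM in replicates 1, 2 and 3, or 215.5 ± 24.7 TPM (SD, n = 3), higher than 96.5% of the 20476 genes with counts. Mertk (ENSMUSG00000014361.5, chr2:128698956-128802894, plus strand) stood at 119.76, 131.26 and 117.52 TPM, or 122.8 ± 7.37 TPM (SD, n = 3). Axl was the higher of the pair in 3 of 3 libraries and its lowest library lay above the highest of Mertk. The ratio of Axl to Mertk was 1.75, with a log2 ratio of 0.81 ± 0.25 (SD, n = 3).

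Tyro3 (ENSMUSG00000027298.17, chr2:119797733-119818104, plus strand) had 3, 24 and 31 expected counts, or 0.05, 0.27 and 0.26 TPM. It did not reach 1 TPM in any library, and its 3 counts in replicate 1 have a 95% Poisson interval of 0.619 to 8.77 counts, which covers counting error only. Of the summed TPM of the 3 receptors, Axl made up 64.9%, 58.9% and 66.8%, and Mertk 35.1%, 41.0% and 33.2%. Tyro3 made up between 0.0146% and 0.0844%. Replicate 2 had the lowest share of Axl, and the share was 65.8% without it against 63.5% ± 4.12 (SD, n = 3) with it.

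Gas6 was the main TAM ligand, far above Pros1. Gas6 (ENSMUSG00000031451.6, chr8:13465374-13494490, minus strand) stood at 143.69, 132.34 and 168.49 TPM, or 148.2 ± 18.5 TPM (SD, n = 3). Pros1 (ENSMUSG00000022912.8, chr16:62854307-62929346, plus strand), which encodes protein S, also an anticoagulant cofactor of the blood, stood at 9.45, 9.49 and 9.15 TPM, or 9.36 ± 0.186 TPM (SD, n = 3). The ratio of Gas6 to Pros1 was 15.7, with a log2 ratio of 3.98 ± 0.21 (SD, n = 3). Gas6 thus made up 94.0% ± 0.784 of the ligand TPM (SD, n = 3). The same libraries held RNA of both receptors and ligands, and the summed TPM of the receptors was 2.16 ± 0.143 times that of the ligands (SD, n = 3).

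Of the receptors and bridges outside the TAM system, Lrp1 and Mfge8 were near the level of Mertk and Timd4 was low. Lrp1 (ENSMUSG00000040249.15, chr10:127538161-127621148, minus strand) stood at 93.25, 92.73 and 114.65 TPM, or 100.2 ± 12.5 TPM (SD, n = 3), a level that rests on the isoform division described below. Mfge8 (ENSMUSG00000030605.15, chr7:79133768-79149060, minus strand) stood at 68.75, 122.95 and 93.63 TPM, or 95.1 ± 27.1 TPM (SD, n = 3). It was highest in replicate 2 and lowest in replicate 1, and its coefficient of variation, 28.5%, was the widest among the 5 genes above 50 TPM, the others lying between 6.00% and 12.5%.

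Timd4 (ENSMUSG00000055546.6, chr11:46810800-46844332, plus strand) had 22, 59 and 36 expected counts, or 0.66, 1.33 and 0.59 TPM. Only replicate 2 passed 1 TPM, so Timd4 was not detected by the rule. Timd4 is best known in tissue-resident macrophages. Among 6 markers of resident macrophages, Gata6 of the peritoneum and Clec4f of the liver were at 0 in all libraries, while the list's summed level was 242, 682 and 358 TPM, most of it Cd5l, and highest in replicate 2 as Timd4 was.

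The engulfment pair was detected throughout, with Dock2 above Elmo1. Dock2 (ENSMUSG00000020143.15, chr11:34226815-34783892, minus strand), the Dock protein typical of blood cells, stood at 31.8, 32.62 and 38.33 TPM, or 34.2 ± 3.56 TPM (SD, n = 3). Elmo1 (ENSMUSG00000041112.17, chr13:20090596-20608353, plus strand) stood at 16.77, 8.62 and 13.81 TPM, or 13.1 ± 4.13 TPM (SD, n = 3). Dock2 was higher in 3 of 3 libraries, at a ratio of 2.71 and a log2 ratio of 1.44 ± 0.50 (SD, n = 3). Replicate 2 had the lowest Elmo1 of the 3 libraries and a Dock2 level between the others.

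**Figure D1:**
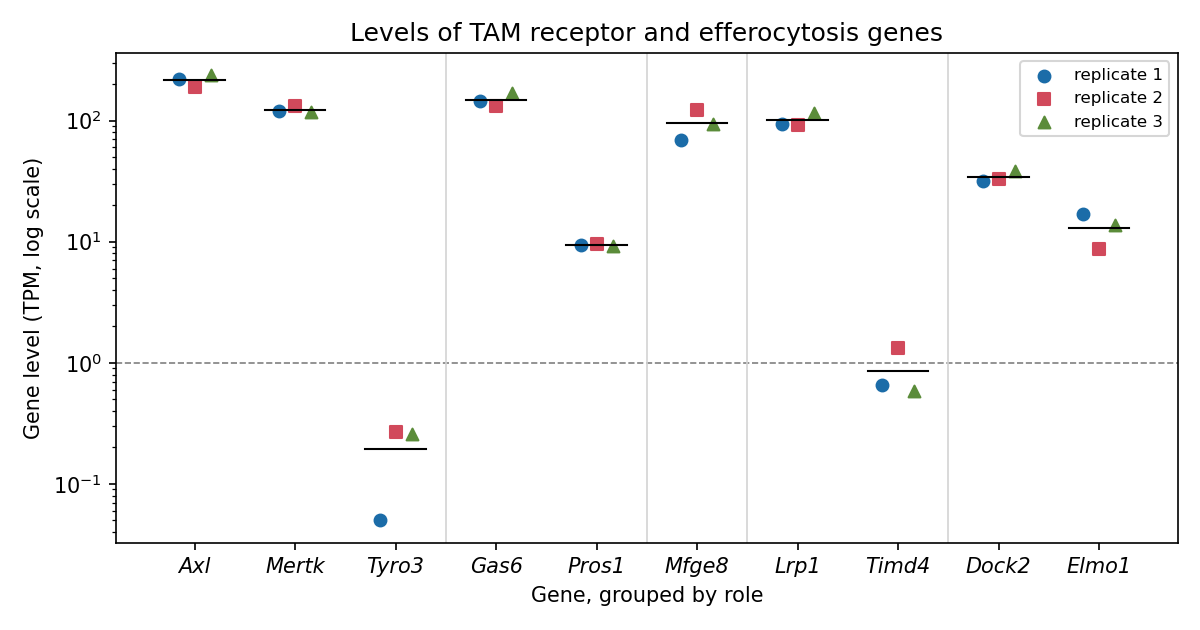
Level of each gene in TPM on a log axis, with 1 point per library and a black line at the mean of 3 libraries. The dashed line marks 1 TPM, the detection threshold, and grey lines divide receptors, ligands, the bridge Mfge8, other receptors and engulfment genes. Axl is the highest gene, and Tyro3 and Timd4 are the only ones with a library under 1 TPM.

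In all, 8 of 10 genes were detected, against 48.5% of the 20476 genes with any count in these libraries. Their median level was 64.7 TPM, and the median over all genes with counts was 1.26 TPM. Ordered by mean level the genes ran Axl, Gas6, Mertk, Lrp1, Mfge8, Dock2, Elmo1, Pros1, Timd4 and Tyro3. Neighbours in this order were called apart where the log2 ratio had the same sign in 3 of 3 libraries and its mean exceeded 2 SD. By that rule 4 of 9 neighbouring pairs were apart: Axl from Gas6, Mfge8 from Dock2, Dock2 from Elmo1, and Pros1 from Timd4. No neighbours along the run Gas6, Mertk, Lrp1 and Mfge8 were apart, nor were Elmo1 and Pros1 or Timd4 and Tyro3. Lrp1 and Mfge8 changed places in replicate 2, as did Elmo1 and Pros1.

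How far the libraries differed from one another was tested per gene with edgeR, by a likelihood-ratio test of the 3 libraries against counting error alone, on TMM-scaled counts, with Benjamini-Hochberg adjustment over all genes tested. All 10 genes passed the filter of a mean count of at least 10. The libraries differed beyond counting error for 9 of the 10, in a test that called 71.0% of the 12414 genes tested. From highest to lowest library, the median was 1.35-fold for the 10 genes and 1.37-fold for all genes tested. The biological coefficient of variation is edgeR's estimate of the spread beyond counting error. Each gene's value is drawn towards the trend over all genes, so it is not that gene's own spread alone. Its median was 17.7% for the 10 genes and 20.5% for all genes tested. For the 8 genes whose counts averaged 100 or more, 7 of which were called, these medians were 1.31-fold and 17.5%. Among all 9075 genes at that depth they were 1.30-fold and 18.1%, and 80.2% were called.

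Pros1 was the gene whose libraries did not differ beyond counting error, at 18.7, 18.5 and 18.8 CPM (counts scaled to a common library total, by TMM, edgeR adjusted p = 0.956). Mertk differed by 1.06-fold between its highest library, replicate 2, and its lowest (edgeR adjusted p = 1.6e-05). Axl differed by 1.28-fold and was lowest in replicate 2 (edgeR adjusted p = 9.7e-136). Without replicate 2, neither receptor differed beyond counting error, with adjusted p = 0.397 for Mertk and adjusted p = 0.0517 for Axl. The 2 receptors thus departed in opposite directions in replicate 2.

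Gas6 was lowest in replicate 2 and highest in replicate 3, 1.34-fold apart. Lrp1 and Dock2 were highest in replicate 3 too, by 1.36-fold and 1.23-fold over their lowest library. Lrp1 and Gas6 differed by 1.04-fold and 1.13-fold without replicate 3, and by 1.27-fold and 1.16-fold without replicate 2. For Dock2 the difference came from replicate 3, and without it the adjusted p was 0.971. Mfge8 went the other way, with 85.6, 143.4 and 115.8 CPM, 1.68-fold between replicates 2 and 1 (edgeR adjusted p = 3.1e-95). It differed beyond counting error whichever library was left out.

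A difference of over 2-fold was called for 3 of the 10 genes, Tyro3, Timd4 and Elmo1, and for 14.2% of all genes tested. Elmo1 had 52.0, 25.9 and 45.0 CPM, and its fold of 2.01 lay at the edge of that rule (edgeR adjusted p = 8.8e-69), at 1.99 with DESeq2 size factors. Without replicate 2 it was 1.16-fold. Timd4 was 2.12-fold higher in replicate 2 than in replicate 3 (95% counting interval 1.38 to 3.30), and without replicate 2 the libraries did not differ beyond counting error (adjusted p = 0.758). Tyro3 was 5.60-fold higher in replicate 2 than in replicate 1, but on 24 and 3 counts, so that the 95% counting interval ran from 1.70 to 29.1. Replicates 2 and 3 both held Tyro3 at 0.657 CPM (edgeR adjusted p = 0.999 without replicate 1). Both counting intervals leave out differences between cultures.

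**Figure D2:**
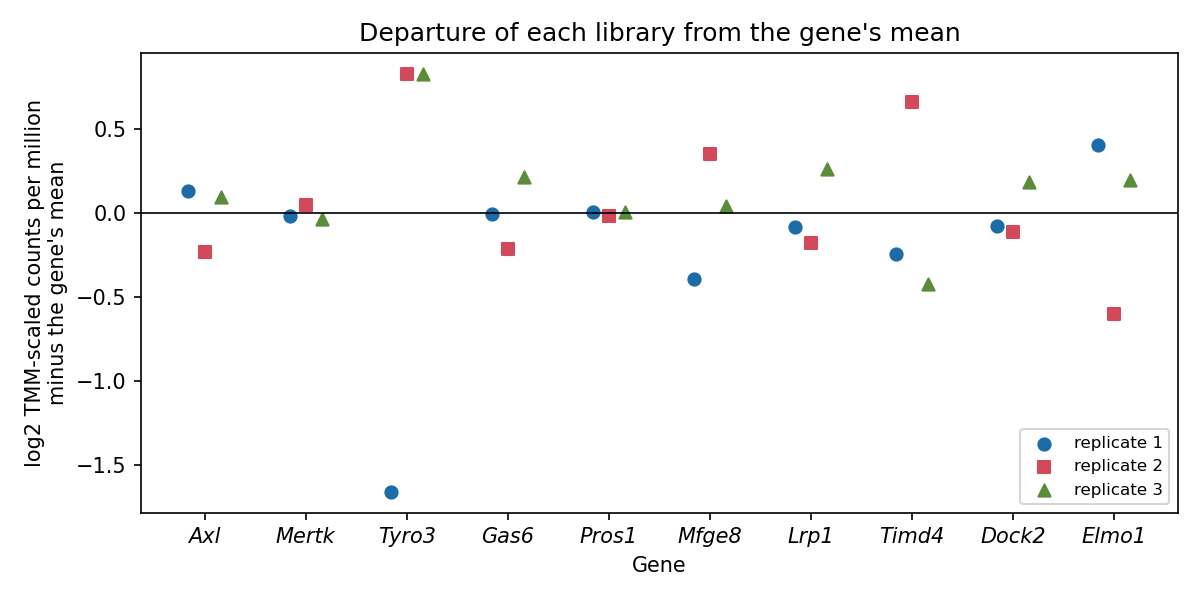
Departure of each library from the gene's own mean, in log2 CPM, with 1 point per library and 0 marking the mean. Points of Pros1 and Mertk lie close to 0. Replicate 2 is high for Mfge8 and Timd4 and low for Elmo1 and Axl, and the low point of Tyro3 is the library with 3 counts.

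The transcript tables showed that Lrp1 owed most of its TPM to transcripts without a protein-coding label. Lrp1-201, the full receptor transcript of 14888 bases in 89 exons, held 34.9%, 34.7% and 36.4% of the gene's TPM. Lrp1-208, a retained-intron transcript of 763 bases, held 51.4%, 47.9% and 47.6%. By expected counts the picture was the reverse: Lrp1-201 held 94.3% ± 0.403 and Lrp1-208 4.35% ± 0.372 (SD, n = 3). Lrp1-208 shares all but the 35 bases in capitals above with exons 87 to 89 of Lrp1-201, and TPM divides counts by length, which differs widely between the pair. A nonsense-mediated-decay transcript, Lrp1-205 of 679 bases, held a further 13.4% ± 2.96 of the TPM (SD, n = 3) and 0.985% of the counts.

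Together, transcripts not annotated as protein-coding held 64.4% ± 0.894 of Lrp1's TPM (SD, n = 3). Of 7621 detected genes that have both kinds of transcript, 5.33% had over 50% of their TPM on such transcripts in all 3 libraries, and 96.1% had a lower share than Lrp1. A second quantification of the same reads, made without an alignment file, put 54.1%, 37.3% and 33.6% there and had Lrp1-201 as the leading transcript. Its gene level for Lrp1 was 54.2 ± 3.74 TPM (SD, n = 3), lower than that of Mertk in 3 of 3 libraries, at 0.526 times its level and apart by the rule of 2 SD. On protein-coding transcripts only, a measure chosen after the data had been seen, Lrp1 stood at 33.05, 32.31 and 41.95 TPM. That placed it below Mertk in 3 of 3 libraries, at 0.360 times its level, whereas the gene totals of the main tables did not place the pair apart. The ratio of Axl to Lrp1 was 2.15 by gene totals of the main tables, 3.33 by those of the second quantification and 5.30 on coding transcripts of the main tables. The place of Lrp1 in the order therefore differed between these measures.

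Mertk has 2 annotated transcripts. Mertk-201, of 4302 bases, encodes the receptor, and Mertk-202, of 2744 bases, starts in an intron and runs through exons 9 to 19 without a coding label. Mertk-202 held 21.1%, 18.8% and 19.1% of the gene's TPM, but 10.2%, 4.74% and 5.57% in the second quantification. The libraries had a like share within each quantification, apart from a higher one in replicate 1, while the quantifications differed by more than the spread between libraries. Mertk on Mertk-201 alone was 98.7 ± 6.78 TPM (SD, n = 3), and Axl on its coding transcripts was 1.91 times as high.

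Axl-201 held 84.35%, 81.95% and 77.88% of the TPM of Axl. Axl-202, which lacks the 27-base exon 10, held 4.79%, 4.71% and 3.68%. In the second quantification it held 12.3%, 12.2% and 11.0%. Axl-201 was therefore the main transcript in all 3 libraries of both quantifications, while the share of Axl-202 was 4.39% ± 0.619 in one and 11.8% ± 0.753 in the other (SD, n = 3). Axl-202 also ends 357 bases short of Axl-201 and has 18 bases of its own at the start, so its share is not a measure of exon 10 alone. Axl-208, the 382-base retained-intron transcript shown above, held 6.70%, 6.58% and 14.2% of TPM on 34.9, 33.4 and 127 expected counts. It was highest in replicate 3, the most deeply sequenced library.

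Mfge8-201, with the 111-base exon 4, held 76.1%, 80.3% and 84.6% of the TPM of Mfge8. That exon encodes the proline- and threonine-rich stretch that distinguishes the long form of the protein. Mfge8-202, without it, held 23.6%, 18.6% and 15.3%. The second quantification gave Mfge8-202 a lower share in each library, at 17.9%, 11.9% and 9.39%, with the libraries in the same order. The long form led in all 3 libraries of both quantifications.

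For the remaining genes 1 transcript led in both quantifications. Gas6 and Timd4 have a single annotated transcript, and all Tyro3 counts fell on Tyro3-201 of its 8 transcripts. Pros1-201, Dock2-201 and Elmo1-201 held 98.4%, 98.9% and 84.2% of their gene's TPM on average, and 93.1%, 96.2% and 77.4% in the second quantification. Elmo1-202, a shorter coding transcript, held 9.97% of the TPM of Elmo1, and 12.9% in the second quantification. The leading transcript was the same by TPM in both quantifications for 9 of 10 genes, with Lrp1 the exception.

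**Figure D3:**
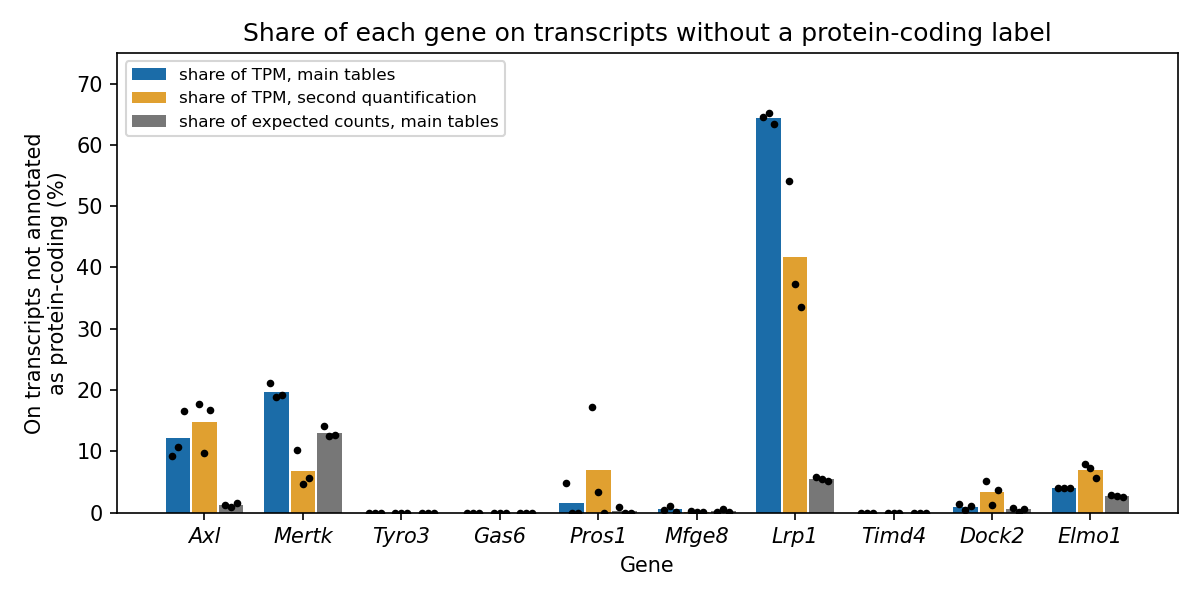
Share of each gene on transcripts not annotated as protein-coding, in percent, with bars at the mean of 3 libraries and a point per library. For Lrp1 the share is 64.4% of TPM and 41.6% in the second quantification but 5.54% of expected counts. Gas6, Timd4 and Tyro3 have none.

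Opposite-strand genes overlap Mertk, Gas6, Lrp1, Dock2 and Elmo1 in the annotation. The one with the most counts was Fam196b, within Dock2, with 8, 10 and 31 counts, and Tmem255b, which overlaps Gas6, had none. The counts of the overlapping genes were thus small beside those of the 5 genes. Whether the counting used strand is not given in the sources used here.

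The start regions of the genes differed in base composition. RefSeq promoter windows (GRCm38.p6) run from 250 bases before a start site to 50 after it, and 11 windows matched the 10 genes. The dinucleotide CG, which reads the same on both strands, occurs in 94.6% of all 32851 windows, with a median of 7 per window. It occurred 31 times in the window of Tyro3, the gene with the lowest level, and 6 times in that of Axl, the gene with the highest. Gas6 and Mfge8 had 17 each, Lrp1 16, Mertk 14 and Pros1 21, while Timd4 and Dock2 had 5 each. Elmo1 has 2 windows, with 21 and 6.

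Other genes of the pathway were taken from 9 lists by role, 112 genes in all, of which 89 were detected and 5 had no counts (Timd2, Tulp1, Arhgef16, Twist1 and Xkr9). Their median level was 23.3 TPM. Of the 98 that could be tested, the libraries differed beyond counting error for 84, and for 13 by over 2-fold. The background for these counts is the 71.0% and 14.2% given above.

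The machinery that completes and sheds the TAM system was present, with 5 of 5 genes detected. Adam17, the protease that sheds Mertk, stood at 108.2 ± 22.1 TPM and the related Adam10 at 22.0 ± 1.34 TPM (SD, n = 3). Ggcx, the carboxylase that Gas6 and Pros1 need, was the lowest of the list at 3.23 ± 0.555 TPM (SD, n = 3). Of these, 3 of 5 differed between libraries.

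Among the other receptors for dying cells, 12 of 21 were detected. Cd14 led with 756.3 ± 102 TPM, followed by the scavenger receptor Msr1 with 577.6 ± 6.47 TPM (SD, n = 3), and Megf10 was the lowest with any count, at 2, 3 and 0 counts. All 15 genes tested differed between libraries, 7 of them by over 2-fold. The widest was Cd36, a scavenger receptor for oxidised lipid, at 46.63, 390.24 and 111.47 TPM, highest in replicate 2 by 7.99-fold in scaled counts, and 2.39-fold without that library. Olr1 (0.14, 2.34 and 0.14 TPM), Itgb3 (0.47, 2.34 and 1.05 TPM) and Stab2 (1.73, 6.51 and 2.75 TPM) were highest in the same library. Without it Olr1 and Stab2 differed by 1.05-fold and 1.01-fold, and Itgb3 by 2.23-fold. Itgb3 is an integrin subunit that binds Mfge8, and Mfge8 too was highest in replicate 2. Itgb3 is also abundant in platelets, whose markers were highest in that library. The summed markers of osteoclasts (81.6, 213 and 107 TPM) and dendritic cells (6.2, 24.3 and 10.7 TPM) were highest there too. At low levels, so were those of T cells (0.06, 1.13 and 0.29 TPM) and B cells (1.12, 1.72 and 0.48 TPM). The same held for fibroblasts and stroma (0.25, 1.67 and 1.48 TPM). The summed markers of macrophages, natural killer cells and endothelium were not highest there. The part of any of these cells in the level of Itgb3 was not tested. Cd300lb and Cd300lf were highest in replicate 3, at 2.09-fold and 2.01-fold, and by 1.03-fold and 1.39-fold without it. Megf11, on 15, 9 and 10 counts, was highest in replicate 1 at 2.77-fold, and 1.16-fold without it. Cd36 differed by 3.34-fold and Itgb3 by 2.12-fold without replicate 1.

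The other bridging molecules were the most abundant list, with 8 of 11 detected and a median of 452.7 TPM. C1qb, a subunit of complement C1q, stood at 3248 ± 408 TPM and Lgals3 (galectin-3) at 2869 ± 715 TPM (SD, n = 3). Edil3, a relative of Mfge8, was at 6, 12 and 13 counts. The libraries differed for 8 of 10 genes tested, none of them by over 2-fold.

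Of the receptors for find-me signals, which draw phagocytes to dying cells, 5 of 7 were detected. The nucleotide receptor P2ry6 led with 84.9 ± 3.15 TPM, and its libraries were not called different (edgeR adjusted p = 0.835). S1pr2, for sphingosine 1-phosphate, followed with 37.3 ± 5.56 TPM (SD, n = 3). Cx3cr1, the fractalkine receptor, was at 1, 3 and 6 counts. In this list 4 of 6 genes tested differed, none by over 2-fold.

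Genes of engulfment signalling other than Elmo1 and Dock2 were detected for 16 of 20. The GTPases Cdc42 and Rac2 led with 755.8 ± 75.7 and 504.3 ± 91.3 TPM (SD, n = 3), and the adaptor Gulp1 had a single count in replicate 3. The libraries differed for 17 of 18 genes tested. Over 2-fold differences were seen for Dock1, another Dock partner of Elmo proteins, at 1.39, 4.27 and 2.37 TPM, and for Dock8 at 29.15, 20.55 and 43.69 TPM. Dock1 was highest in replicate 2, the library with the lowest Elmo1, and differed by 1.70-fold without it and by 1.56-fold without replicate 1. Dock8 differed by 1.46-fold without replicate 3.

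Genes that restrain engulfment were detected for 6 of 7. Sirpa, the receptor of macrophages for Cd47, stood at 986.4 ± 125 TPM and Cd47 at 684.1 ± 6.49 TPM (SD, n = 3), both above every one of the 10 genes. Siglecg was the lowest of the list at 0.773 ± 0.383 TPM (SD, n = 3). All 7 differed between libraries. Siglecg, highest in replicate 1 at 2.97-fold, and its ligand Cd24a, highest in replicate 2 at 2.47-fold, did so by over 2-fold. Without replicate 1 they differed by 1.51-fold and 1.16-fold, and without replicate 3 Siglecg differed by 1.97-fold.

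All 15 genes of corpse digestion were detected. The lysosomal protein Lamp1 led with 1891 ± 106 TPM and Cybb, the oxidase subunit of LC3-associated phagocytosis, followed with 820.3 ± 73.6 TPM (SD, n = 3). Rubcn, which LC3-associated phagocytosis requires, was lowest with 7.33 ± 1.58 TPM (SD, n = 3). The libraries differed for 10 of 15, none by over 2-fold.

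Genes of the response to engulfed cargo were detected for 16 of 18. Ucp2, a mitochondrial carrier, led with 488.1 ± 45.8 TPM and Socs3, an inhibitor of cytokine signalling, followed with 375.1 ± 17.5 TPM (SD, n = 3), and Twist2 had a single count. The libraries differed for 14 of 16 genes tested. Differences of over 2-fold were seen for Pparg, a lipid-sensing nuclear receptor, at 3.38, 5.96 and 7.68 TPM, and for Odc1, of polyamine synthesis, at 32.3, 75.37 and 45.9 TPM. Odc1 differed by 1.40-fold without replicate 2, and Pparg by 1.48-fold without replicate 1 and 1.60-fold without replicate 3.

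Of the scramblases and flippases that set phosphatidylserine exposure, 6 of 8 were detected. The flippase subunit Tmem30a stood at 109.1 ± 17.0 TPM and the scramblase Xkr8 at 48.7 ± 7.16 TPM (SD, n = 3), while Xkr4 had a single count. All 6 genes tested differed between libraries, none by over 2-fold. Across the 9 lists, replicate 2 was the highest library for 7 of the 13 genes with a difference of over 2-fold, replicate 3 for 4 and replicate 1 for 2. Of the 13, 7 still differed by over 2-fold without replicate 2, as did 7 without replicate 1 and 8 without replicate 3. Whatever the fold, replicate 2 was the highest library by TPM for 44 of the 112 listed genes. Over all 20476 genes with counts it was the highest for 8248, replicate 1 for 6634 and replicate 3 for 5594.

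**Figure D4:**
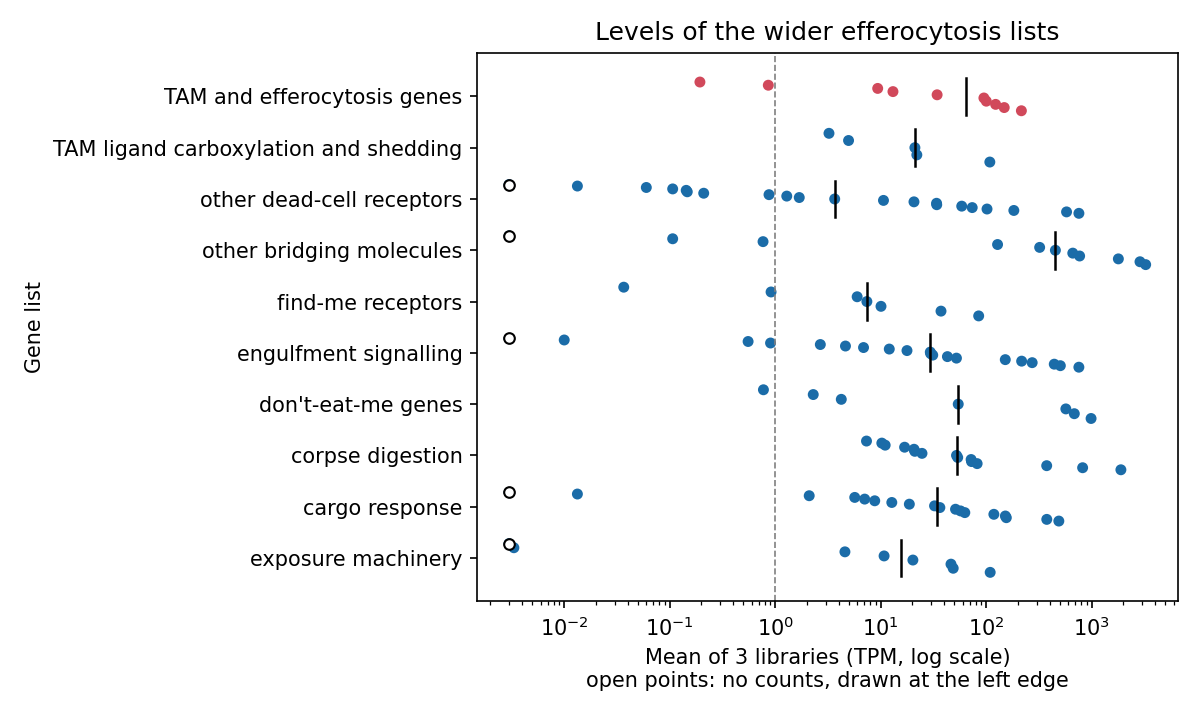
Mean TPM of 3 libraries on a log axis for the 10 genes (red) and for each gene of the 9 wider lists (blue), with a black line at each list's median and a dashed line at 1 TPM. Open points at the left edge are genes without counts. The other bridging molecules have the highest median, 452.7 TPM, and the 10 genes have a median of 64.7 TPM.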

How the data were processed

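PolyA plus RNA was sequenced in 3 libraries of stimulated bone-marrow-derived macrophages. Per the labels, 1 µg of starting RNA and a size range of 250 to 400 were used. Quantification used mm10 with GENCODE M21, per the deposited readme. Aligner and programs: not given in the sources used here. Gene and transcript tables hold the authors' expected counts, which per the file headers are fractional, model-assigned and not scaled between libraries. The deposited TPM values are per effective length and sum to the same total in each library. The deposited percent values are each transcript's share of its gene's TPM. A second quantification, made without an alignment file, gives estimated counts and TPM per transcript, per the file headers, and these were summed per gene.

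Levels are the deposited TPM as mean ± SD. Expected counts were rounded for edgeR. Variation between libraries was tested with a Poisson likelihood-ratio test (dispersion 0, TMM scaling, a minimum mean count of 10, Benjamini-Hochberg adjustment, threshold 0.05). Such a test does not cover error from the division of reads by a model. It was also run on simulated counts drawn from the same Poisson model. That run therefore does not show how the test behaves on libraries with more spread. Alternatives were each library left out, DESeq2 size factors, library totals alone, no filter and a chi-square test. Others were the second quantification, other TPM thresholds and TPM rescaled without mitochondrial and ribosomal RNA genes. Protein-coding transcripts only and shares of counts were chosen after seeing the data. The 10 genes and the lists were chosen with earlier results of these data known. Genes named from a list are the 2 highest and the lowest with any count, those without counts, and those called with over 2-fold. No gene was named for a pattern like that of another, since 3 libraries are too few. Sequences were read from the GENCODE M21 transcripts. Totals of 26589042 to 48356527 counts limit precision at low levels: 3 counts of Tyro3 made 0.05 TPM in replicate 1. Tests ran in R 4.3.3 with edgeR 4.0.16 and DESeq2 1.42.0, and tables and plots in Python 3.11.15 with pandas 2.3.3 and matplotlib 3.10.9.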

Additional observations from a re-analysis of the deposited data

How the results depend on the processing

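No paired analysis was possible because the 3 libraries form 1 group. Neighbouring genes apart numbered 4 of 9 and between 5 and 7 with 1 library left out, where the SD rests on 2 values. That number was 7 with a rule of 1 SD and 7 on protein-coding transcripts only. Every setting kept the pairs of the main order, in which Lrp1 stands above Mfge8. On protein-coding transcripts Lrp1 was at 35.8 TPM and Mfge8 at 94.5 TPM, so not all of these pairs were neighbours by that measure. The share of Gas6 among the ligands was 94.0% by TPM and 92.3% by expected counts. Genes whose libraries differed numbered 8812 of 12414 and between 5328 and 7486 with 1 library left out, fewest without replicate 2. In the wider lists 84 of 98 genes tested were called, and 70, 71 and 75 of 97 without replicates 1, 2 and 3. Of the 10 genes, 9 were called, and 8, 6 and 8 without replicates 1, 2 and 3. Tyro3 was lost without replicate 1, Mertk, Axl and Timd4 without replicate 2, and Dock2 without replicate 3, while no call among the 10 changed under the other 5 settings. Mean levels in the second quantification ran from 0.541 times (Lrp1) to 0.921 times (Tyro3) those of the main tables, and on protein-coding transcripts Lrp1 fell to 0.357 times. The number of genes detected stayed at 8 of 10 in every setting run except a threshold of 0.5 TPM, which added Timd4. Depth limits Tyro3 and Timd4, which rest on 3 to 59 counts a library.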
